A study of Mus musculus with 4 samples.

Results

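The genomic windows around 4 genes of red cell formation were examined for KLF1 occupancy: Klf1 itself, Gata1, Tal1 with its downstream enhancer, and Bcl11a. A window is a stretch of the mouse build mm9 given by coordinates alone: chr8:87410000-87445000 for Klf1, chrX:7520000-7575000 for Gata1, chr4:114700000-114800000 for Tal1 and chr11:23950000-24100000 for Bcl11a. Members were the entries of the authors' peak list that start in a window, and the aligned reads inside it. Of the 945 listed KLF1 peaks, 0 started in any of the 4 windows. The windows held 3096 of the 17438921 ChIP reads and 8573 of the 47356494 input reads.

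KLF1 occupancy was measured by chromatin immunoprecipitation followed by sequencing (ChIP-seq), in which an antibody recovers the DNA bound by a protein. The material was erythroid cells of fetal liver at stage E14.5, pooled from 4 livers of Balb/c mice that lacked Klf3 (Klf3 -/-), labelled as female. The ChIP used a rabbit polyclonal antibody to KLF1, and input DNA of the same kind of liver received no antibody, so both groups lacked Klf3 and no liver with intact Klf3 was part of the series. Each group was sequenced on 2 SOLiD systems (2.0 and 3.0) and the processed files combine both runs into 1 library, so every value below comes from 1 library per group and has no replicate error. Intervals in parentheses are 95% Clopper-Pearson intervals (exact binomial) of the read counts, and reflect counting error alone.

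KLF1 binds CACCC-type elements through its zinc fingers in red cell precursors and activates adult beta-globin and many other erythroid genes. GATA1 binds GATA motifs and drives erythroid maturation. TAL1 is a basic helix-loop-helix factor that binds E-boxes with partner proteins and works together with GATA1. BCL11A is a zinc finger repressor of embryonic and fetal globin genes, and KLF1 is known to activate its gene in adult erythroid cells.

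The stretches of 250 bases before the RefSeq starts of the genes show which letters KLF1 would be looked for in. They are from GRCm38.p6, another build than that of the reads, so they were not placed in the mm9 windows. Written 5′ to 3′ on the gene's strand, with matches to CCNCNCCC, the extended KLF1 motif, or to its reverse complement in capitals, they read as follows.
Klf1, chr8:84901732-84901981, plus strand: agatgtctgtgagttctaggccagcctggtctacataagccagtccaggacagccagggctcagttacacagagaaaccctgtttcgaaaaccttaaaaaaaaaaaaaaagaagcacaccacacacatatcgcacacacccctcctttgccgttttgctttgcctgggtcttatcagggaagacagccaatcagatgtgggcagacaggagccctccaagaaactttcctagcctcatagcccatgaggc
Gata1, chrX:7967911-7968160, minus strand: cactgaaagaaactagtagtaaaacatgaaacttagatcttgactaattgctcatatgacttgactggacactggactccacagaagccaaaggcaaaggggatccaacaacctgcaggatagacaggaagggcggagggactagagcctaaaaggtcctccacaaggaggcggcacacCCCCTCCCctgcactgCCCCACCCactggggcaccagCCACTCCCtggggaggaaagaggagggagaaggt
Tal1, chr4:115057561-115057810, plus strand: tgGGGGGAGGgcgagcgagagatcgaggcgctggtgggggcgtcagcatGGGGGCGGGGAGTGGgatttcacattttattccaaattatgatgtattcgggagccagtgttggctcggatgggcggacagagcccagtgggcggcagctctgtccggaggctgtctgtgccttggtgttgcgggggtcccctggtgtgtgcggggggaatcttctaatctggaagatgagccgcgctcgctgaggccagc
Bcl11a, chr11:24080445-24080694, plus strand: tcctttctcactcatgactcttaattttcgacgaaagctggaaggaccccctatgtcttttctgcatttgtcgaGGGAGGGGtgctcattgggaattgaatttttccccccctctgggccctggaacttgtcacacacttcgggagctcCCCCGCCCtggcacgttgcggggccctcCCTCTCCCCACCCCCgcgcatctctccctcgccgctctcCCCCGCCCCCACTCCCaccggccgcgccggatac

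Matches to CCNCNCCC, counted on both strands and allowed to overlap, numbered 0 for Klf1, 3 for Gata1, 4 for the Tal1 stretch shown and 8 for Bcl11a. A second Tal1 stretch, chr4:115056176-115056425, held 0. Of 32851 RefSeq stretches of the same length, 45.9% held at least 1 match. The shorter core CACCC, which can lie within such a match, occurred once in Klf1, 114 bases before the start. It occurred 2 times in Gata1, 2 times in Bcl11a and 0 times in the Tal1 stretch shown, against 52.0% of all stretches with at least 1. The second Tal1 stretch held it once, 138 bases before the start. For GATA motifs only the form AGATAA was searched. It was found in none of the 4 stretches shown and once in the second Tal1 stretch, 205 bases before the start, against 9.99% of all stretches. Other forms were not counted, such as TGATAA, whose reverse complement ttatca stands in the Klf1 stretch. The E-box CANNTG was found once each in Klf1, Gata1 and Bcl11a, and in 66.2% of all stretches. A match is a description of letters and not of binding.

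None of the 4 windows held a listed peak, and the length of the windows sets how much a count of 0 can say. The windows span 0.34 Mb. At the mean density of the list, 0.366 peaks per Mb over 2579 Mb of chromosomes 1 to 19 and X, that length would hold 0.125 peaks. When those chromosomes were divided into non-overlapping tiles as long as each window, leaving out tiles with few input reads, tiles with at least 1 listed peak were rare. They made up 1.29% of tiles for the Klf1 length, 1.97% for Gata1, 3.41% for Tal1 and 4.97% for Bcl11a. On chromosome X alone, 0.269% of tiles of the Gata1 length held a peak. The absence of a listed peak was thus the usual state of a stretch of these lengths.

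The listed peaks closest to the windows lay at very different distances. For Klf1 a peak started on either side, at 87362611, 47.4 kb before the window, and at 87494998, 50 kb after it. The first had a height of 21 ChIP reads, the number of reads that cover the summit once each read is extended by 100 positions from its 5′ end, and 86 of the 945 peaks were higher. The input height there was 5 reads, which gave a library-scaled ratio of 11.4 (4.19 to 38.7). The second had a height of 15 over 5 input reads, a ratio of 8.15 (2.81 to 28.7). These summit heights are the values that the list itself gives for its peaks, and so they and their ratios are a description.

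Reads that start more than 100 and at most 300 bp from a summit do not cover it and were tested separately, by a one-sided exact binomial test with Benjamini-Hochberg adjustment over all 945 peaks. Of the listed peaks, 29.0% passed at a threshold of 0.05. The peak after the Klf1 window was among them, with 17 ChIP and 16 input reads in its flanks, a ratio of 2.89 (1.37 to 6.10, adjusted exact binomial p = 0.0128). The peak before it had 11 and 16 reads, a ratio of 1.87 (0.783 to 4.28), and did not pass (adjusted exact binomial p = 0.175). With flanks reaching to 500 bp it passed (ratio 2.09, adjusted exact binomial p = 0.0419). Both peaks lie outside the window, and the gene next to each was not assigned here.

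On chromosome X no listed peak preceded the Gata1 window, and the first one after it, at 7679514, lay 105 kb away. It had a height of 10 with 0 input reads at the summit. With 3 input reads put in place of 0 the ratio was 9.05, which is not a lower bound. The exact interval of the counts themselves had a lower limit of 6.09 and no upper limit. The flanks of this peak held 14 ChIP and 8 input reads, a ratio of 4.75 (1.86 to 13.1, adjusted exact binomial p = 0.00281). It was 7.47 with flanks to 200 bp (adjusted exact binomial p = 0.00367), but with flanks to 500 bp the ratio was 2.24 and the call was lost (adjusted exact binomial p = 0.0674). The Tal1 and Bcl11a windows stood further from a listed peak than those of Klf1 and Gata1. How usual such distances are at the density of the list was not tested. The closest to Tal1 lay 3.50 Mb before and 1.87 Mb after it, with heights of 15 and 9. Those closest to Bcl11a lay 3.77 Mb before and 0.900 Mb after, with heights of 10 and 20. Of these 4 peaks, the one after Tal1 passed the flank test, with 14 ChIP and 10 input reads, a ratio of 3.80 (1.57 to 9.57, adjusted exact binomial p = 0.00787). Its ratio was 6.52 with flanks to 200 bp and 2.47 with flanks to 500 bp, and it passed with both (adjusted exact binomial p = 0.00367 and 0.0167). The one after Bcl11a had the greatest summit ratio, 54.3 (8.69 to 2251) over 1 input read. With reads extended by 150 positions that ratio was 14.9 (5.07 to 59.6). It had 4 ChIP and 12 input reads in its flanks, a ratio of 0.905 (0.213 to 2.99).

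Over no window as a whole did ChIP reads exceed input beyond counting error. The Klf1 window held 362 ChIP and 1014 input reads, a scaled ratio of 0.969 (0.857 to 1.09). The Gata1 window held 342 and 1042, a ratio of 0.891 (0.786 to 1.01). The Tal1 window held 963 and 2644, a ratio of 0.989 (0.918 to 1.07). The Bcl11a window held 1429 and 3873, a ratio of 1.002 (0.942 to 1.06). All 4 intervals include 1. Such totals can hide a single site. Without the reads within 500 bp of the highest Klf1 pileup, described below, the ratio of that window was 0.951. With the Gata1 window widened by 10 kb on each side, its ratio, scaled to all reads, was 0.848 (0.762 to 0.943), an interval wholly below 1. Gata1 was the lowest, and chromosome X as a whole had a ratio of 0.930. Scaled to the reads of that chromosome, the Gata1 ratio was 0.958 (0.845 to 1.08). The widened Gata1 window was not scaled in this way. The middle 95% of genome tiles of the same lengths ran from 0.779 to 1.32 for Klf1, 0.795 to 1.29 for Gata1, 0.812 to 1.27 for Tal1 and 0.817 to 1.26 for Bcl11a, and each window lay inside its range.

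The windows differed in how many reads they offered. The Klf1 window had 10.3 ChIP and 29.0 input reads per kb, Tal1 9.63 and 26.4, and Bcl11a 9.53 and 25.8. The Gata1 window had 6.22 and 18.9. The median tile held 19.5 input reads per kb at the Klf1 length and 10.2 at the Gata1 length on chromosome X. The Klf1 window was thus richer in input than 93.5% of tiles, and the Gata1 window richer than 97.4% of the tiles of chromosome X. At the Gata1 length the median tile of chromosomes 1 to 19 and X together held 19.4. How the lower input of chromosome X bears on the label of the material as female was not tested. No ChIP read covered 41.4% of positions in the Klf1 window, 55.7% in Gata1, 41.1% in Tal1 and 39.6% in Bcl11a. For a pileup to reach 9, the lowest height in the list, it had to exceed the mean ChIP height of the window 8.62 times in Klf1, 14.3 times in Gata1, 9.26 times in Tal1 and 9.35 times in Bcl11a.

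**Figure D1:**
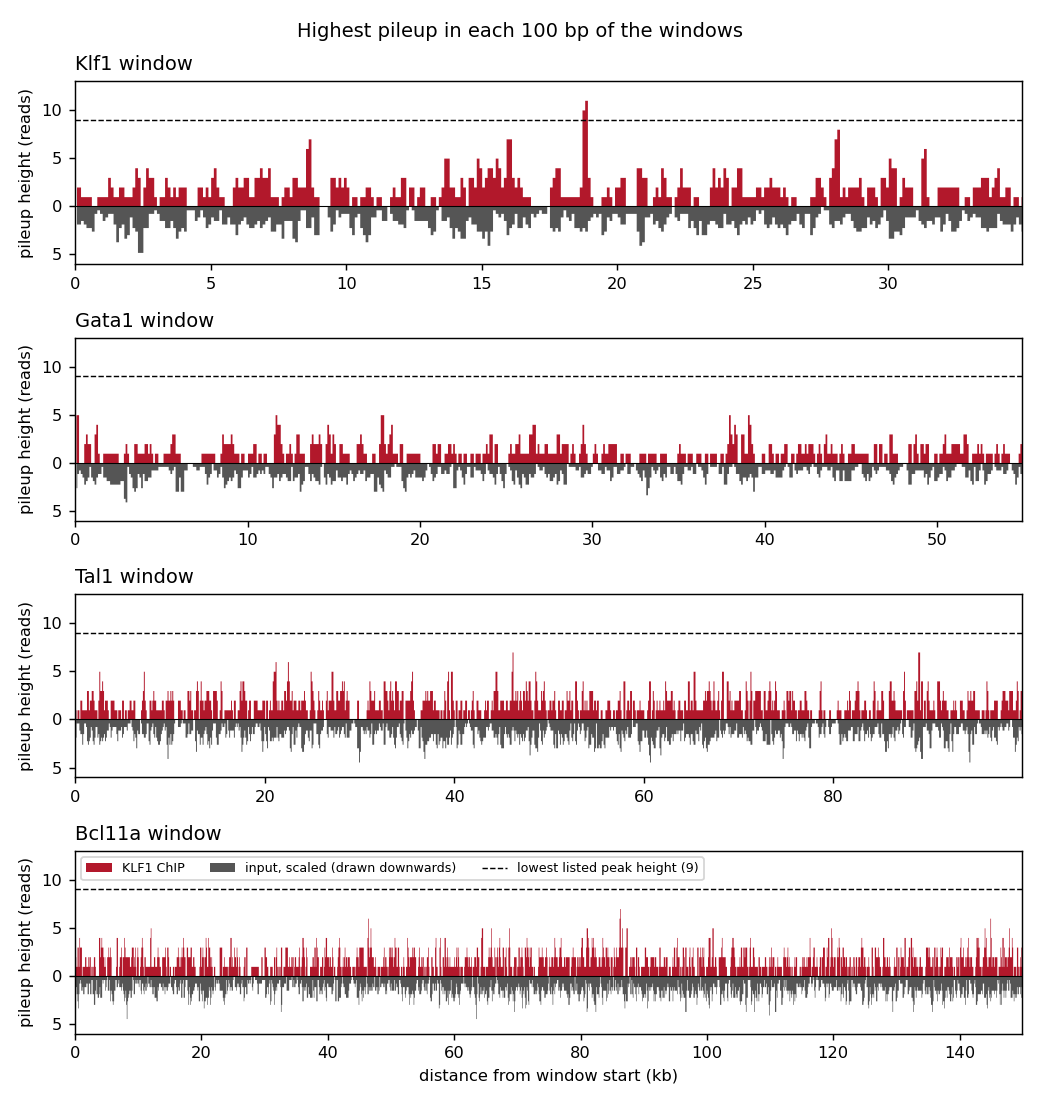
Highest ChIP pileup (red, upwards) and highest input pileup scaled to the ChIP library (grey, downwards) in each 100 bp against distance from the window's start in kb, for each of the 4 windows. Only the Klf1 window has a ChIP pileup above the dashed line at 9, the lowest height in the peak list, with 11 reads; the highest pileups are 5 reads in Gata1 and 7 in Tal1 and Bcl11a.

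The Klf1 window held the one pileup that reached the heights of the list. It peaked at position 87428827 on chromosome 8, 18.8 kb into the window, with a height of 11 ChIP reads, which is also the median height of the 945 listed peaks. The input height there was 6 reads, or 2.21 after scaling, and the ratio was 4.98 (1.69 to 16.4). The position was chosen for its height, so this ratio and its interval are a description and not a test. Of the genome tiles of that length, 0.708% had an unlisted pileup at least this high. Among the 4387 tiles with at least as many input reads as the Klf1 window, the share was 1.55%. How far the read density of the window sets this height was not tested.

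The peak list's file name speaks of 5-fold, and the Klf1 pileup lies close to that ratio. In the whole genome 2210 regions reached a ChIP height of 9 or more, of which 945 were at a listed peak and 1265 were not. Taking the position of greatest height with the lowest input, the listed regions had ratios of 5.43 or more. Among the unlisted regions 115 of 1265 had a ratio of 5 or more. The 107 listed regions of height 11 had at most 5 input reads at the summit, 1 fewer than the Klf1 pileup, and ratios of 5.97 or more. The 129 unlisted regions of height 11 had a median of 10 input reads and a median ratio of 2.99, and 13 of them had a higher ratio than the Klf1 pileup. In height the Klf1 pileup equals the median listed peak, but 708 of the 1265 unlisted regions were at least as high. In ratio it falls between the listed regions and most unlisted ones. A list cut at 5-fold would hold such a gap in ratio by its making. No source used here gives the authors' calling rule.

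**Figure D2:**
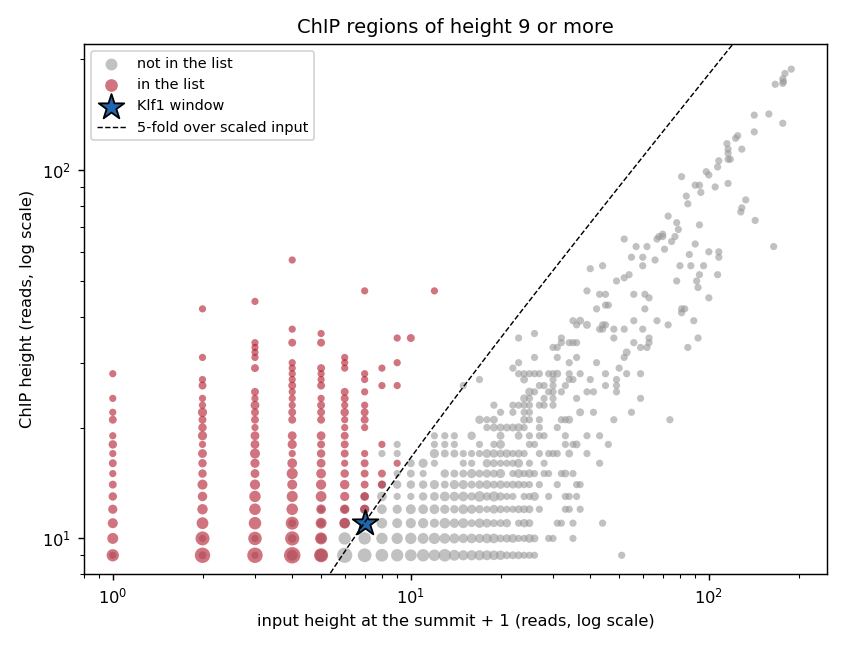
ChIP height against input height plus 1, both in reads on log scales, for the 2210 regions with a ChIP height of 9 or more; point area grows with the number of regions at the same values. Listed regions (red) lie above the dashed 5-fold line, most unlisted ones (grey) below it, and the Klf1 pileup (blue star, 11 ChIP and 6 input reads) lies at the line.

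The ratio changed along the Klf1 pileup. It stayed at 9 or more over 83 positions, from 87428772 to 87428854, where the input ranged from 4 to 7 reads. The ratio was 5 or more at 33 of these positions and at most 6.79 (1.96 to 29.7), at position 87428788 with 10 ChIP and 4 input reads. The lowest was 3.88. With reads extended to 80 positions, the lower end of the labelled insert range of 80 to 130 bp, the pileup peaked at 10 over 4 input reads, a ratio of 6.79. With reads extended by 150 positions it reached 12 over 7, a ratio of 4.66.

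Reads beside the Klf1 pileup did not pass a test of excess. The flanks up to 300 bp held 4 ChIP and 12 input reads, a ratio of 0.905 (0.213 to 2.99). Flanks up to 200 bp held 3 and 7 reads, a ratio of 1.16, and those up to 500 bp 5 and 23, a ratio of 0.590. The one-sided exact binomial test, adjusted over the 2210 regions of height 9 or more, gave an adjusted p of 1, where 12.4% of these regions passed. The interval of the Klf1 flank ratio up to 300 bp is wide enough to include the median flank ratios of both listed and unlisted regions of height 11. With 1 read added to each count those medians were 2.08 and 1.36, and the Klf1 ratio was 1.04. Of the regions of height 11, 25 of the 107 listed and 2 of the 129 unlisted passed the test. Of the 11 ChIP reads over the summit, 7 were on the forward and 4 on the reverse strand. Within 300 bp, 9 ChIP reads on the forward strand started at or before the summit and 1 after it, while 3 on the reverse strand started at or before and 4 after. The input reads there numbered 9 and 3 on the forward and 5 and 4 on the reverse strand.

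**Figure D3:**
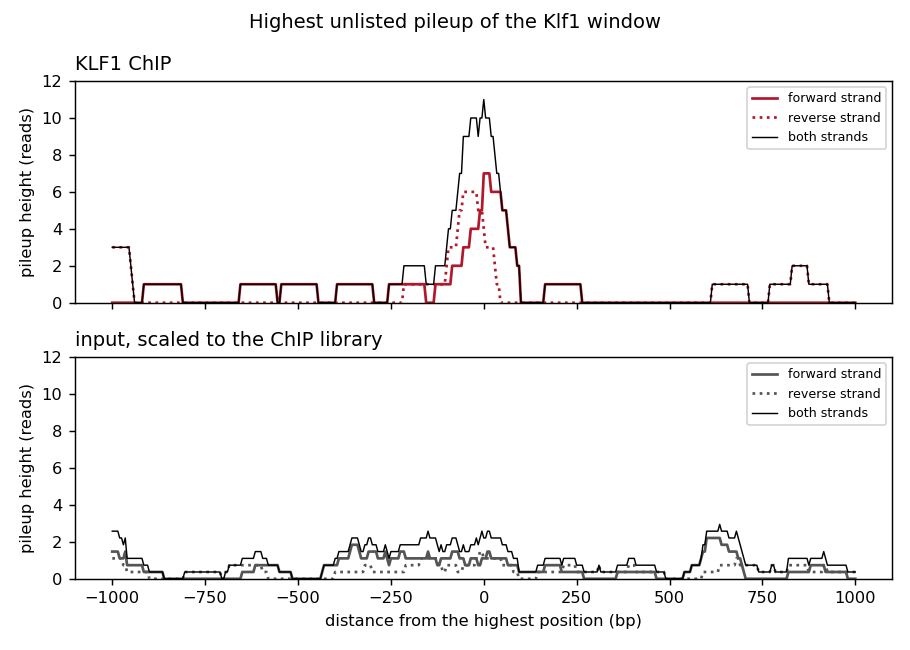
Pileup height in reads against distance in bp from the highest position of the Klf1 pileup, for ChIP (top) and for input scaled to the ChIP library (bottom), with forward reads as a solid, reverse reads as a dotted and both as a black line. ChIP rises to 11 reads, 7 forward and 4 reverse, over a scaled input of 2.21.

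Lower pileups in the Klf1 window were also frequent. The sites in this and the following paragraphs, other than the highest of each window, were chosen after their values were seen. Every pileup, the highest included, was picked by its ChIP height, with ties going to the lowest input. The choice itself raises the summit ratios, so they and their intervals are a description and not a test. Stretches of ChIP height 6 or more, joined within 200 bp, numbered 5 in the 35 kb of Klf1, 0 in the 55 kb of Gata1, 4 in the 100 kb of Tal1 and 3 in the 150 kb of Bcl11a. The share of positions with a height of 5 or more was 1.81% in Klf1, 0.262% in Gata1, 0.664% in Tal1 and 0.381% in Bcl11a, against 0.230% over the genome. Of tiles of the Klf1 length, 0.372% had a share as high, and 2.55% of those with at least as many input reads. Besides the highest, the Klf1 pileups stood at 87438128 with 8 ChIP and 3 input reads (ratio 7.24, 1.74 to 42.4), at 87425934 with 7 and 4 (4.75, 1.21 to 22.1) and at 87418617 with 7 and 6 (3.17, 0.912 to 11.4). The last, at 87441304, had 6 and 3 (5.43, 1.16 to 33.6). The flanks of 87425934 held 8 ChIP and 7 input reads, a ratio of 3.10 (0.983 to 10.1). The other 4 had flank ratios of at most 1.25. Which of these lie in the Klf1 gene was not determined, since no mm9 gene models were used here.

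In the Tal1 window the highest pileup was 7 reads at 114746112 over 1 input read, a ratio of 19.01 (2.44 to 857). Its flanks held 5 ChIP and 17 input reads, a ratio of 0.799 (0.230 to 2.26). A pileup as high was present in 27.0% of tiles of that length, and in 51.7% of those with at least as many input reads. With reads extended by 150 positions the highest Tal1 pileup was another, at 114722433, with 8 ChIP and 2 input reads and a ratio of 10.9 (2.17 to 105). A second pileup of 7, at 114788982, stood over 5 input reads (3.80, 1.04 to 15.2), and pileups of 6 stood at 114721102 over 3 and at 114722433 over 2. None of the 4 had a flank ratio above 1.73. The stretch of the downstream enhancer within the window was not placed, for want of mm9 annotation.

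In the Bcl11a window the highest pileup was also 7 reads, at 24036219 over 3 input reads, a ratio of 6.34 (1.45 to 38.0). Its flanks held 6 and 9 reads, a ratio of 1.81 (0.530 to 5.70), and 36.4% of tiles had a pileup as high, or 64.4% of those with at least as many input reads. The other 2 stretches, at 23996334 and 24094858, each had a height of 6 over 4 input reads, a ratio of 4.07 (0.966 to 19.6).

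The Gata1 window had the lowest pileups. The greatest height was 5 reads, reached in 5 stretches. The one with the least input, at 7520125 and 0.125 kb from the window's start, had 0 input reads at its summit. With 3 input reads put in place of 0 the ratio was 4.53, which is not a lower bound. The exact interval of the counts themselves had a lower limit of 2.49 and no upper limit. The flanks of this pileup held 1 ChIP and 11 input reads, a ratio of 0.247 (0.0057 to 1.70). Of all tiles of that length 89.7% had a pileup as high or higher, and of those on chromosome X 31.8% did. Among the 67 tiles of chromosome X with at least as many input reads, the share was 70.1%. When reads were extended by 150 positions, the highest Gata1 pileup was at 7537787, with 7 ChIP and 7 input reads and a ratio of 2.72 (0.813 to 9.07).

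**Figure D4:**
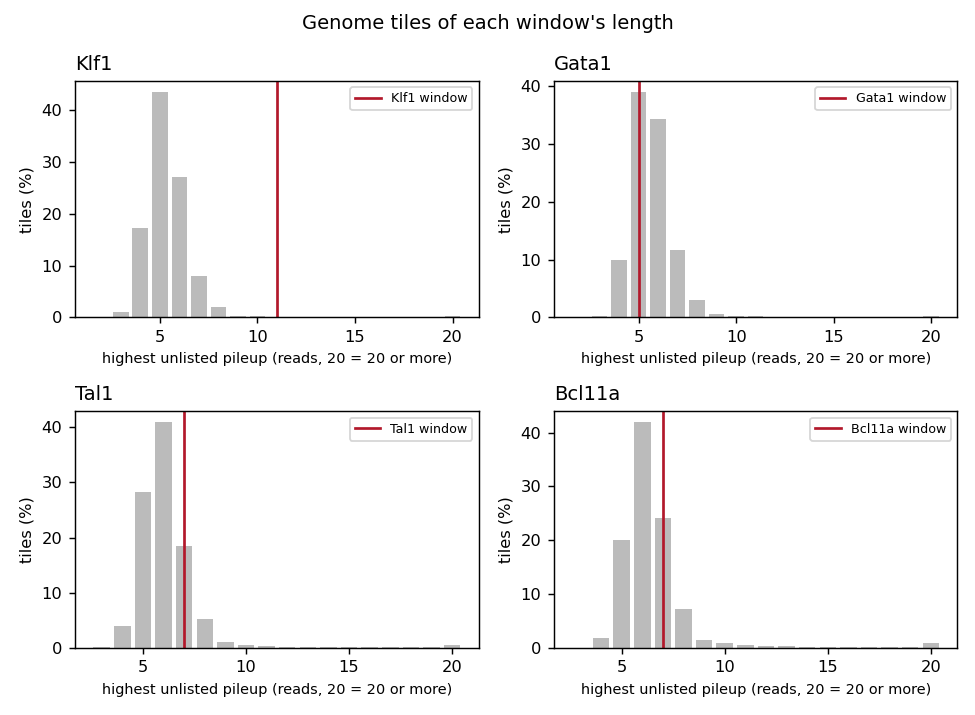
Share of genome tiles in percent against the highest unlisted ChIP pileup in the tile in reads (20 stands for 20 or more), for tiles as long as each window; the red line marks the window. The Klf1 line at 11 lies beyond most tiles, while Gata1 at 5 and Tal1 and Bcl11a at 7 lie among them.

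A scan for wider enrichment called no bin in the windows. Bins of 1 kb were called where ChIP exceeded input 5-fold, with 1 read added to each count, and a one-sided exact binomial test passed 0.05 after Benjamini-Hochberg adjustment over all 2402567 bins with a ChIP read. In the genome 141 bins, or 0.00587%, were called, and in the windows 0 of 339. The test compares 2 libraries and not conditions. At an unadjusted p under 0.05 were 16 of the 339 bins, or 4.72%, against 4.66% of all bins. These were 2 in Klf1, 3 in Gata1, 6 in Tal1 and 5 in Bcl11a.

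The scan could see only strong enrichment. It called 141 bins in the genome, while the list holds 945 peaks with a median height of 11 reads. A count of 0 bins thus does not show that a window lacks a site like the listed ones. At the mean input of the windows, a bin needed 55 ChIP reads in Klf1, where 10.7 were expected from input. It needed 36 in Gata1 against 6.98 expected, and 49 each in Tal1 and Bcl11a against 9.74 and 9.51. The lowest p in the Klf1 window belonged to the bin from 87425000 to 87425999, with 24 ChIP and 38 input reads, a ratio of 1.72 (0.984 to 2.93, adjusted exact binomial p = 0.996). In Tal1 it was the bin from 114798000, with 13 and 10 reads and a ratio of 3.53 (1.43 to 8.99, adjusted exact binomial p = 0.721). In Bcl11a it was that from 24066000, with 11 and 9 reads and a ratio of 3.32 (1.25 to 9.06, adjusted exact binomial p = 0.833). In Gata1 it was that from 7571000, with 11 reads in each library and a ratio of 2.72 (1.07 to 6.91, adjusted exact binomial p = 0.967).

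Over segments of 5 kb the ratios scattered around 1. They ran from 0.763 to 1.33 over the 7 segments of Klf1, 0.612 to 1.23 over the 11 of Gata1, 0.631 to 1.28 over the 20 of Tal1 and 0.669 to 1.59 over the 30 of Bcl11a. A single segment had an interval wholly above 1, that of Bcl11a from 24065000 to 24069999, with 52 ChIP and 89 input reads and a ratio of 1.59 (1.10 to 2.26). It holds the Bcl11a bin named above. The segment just before it was low, with 33 and 134 reads and a ratio of 0.669 (0.442 to 0.985). Intervals wholly below 1 were seen in 1 segment of Gata1, 2 of Tal1 and 1 of Bcl11a. These intervals are not adjusted for the number of segments. The highest Klf1 segment, 1.33, holds both the pileup of 11 and that at 87425934.

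**Figure D5:**
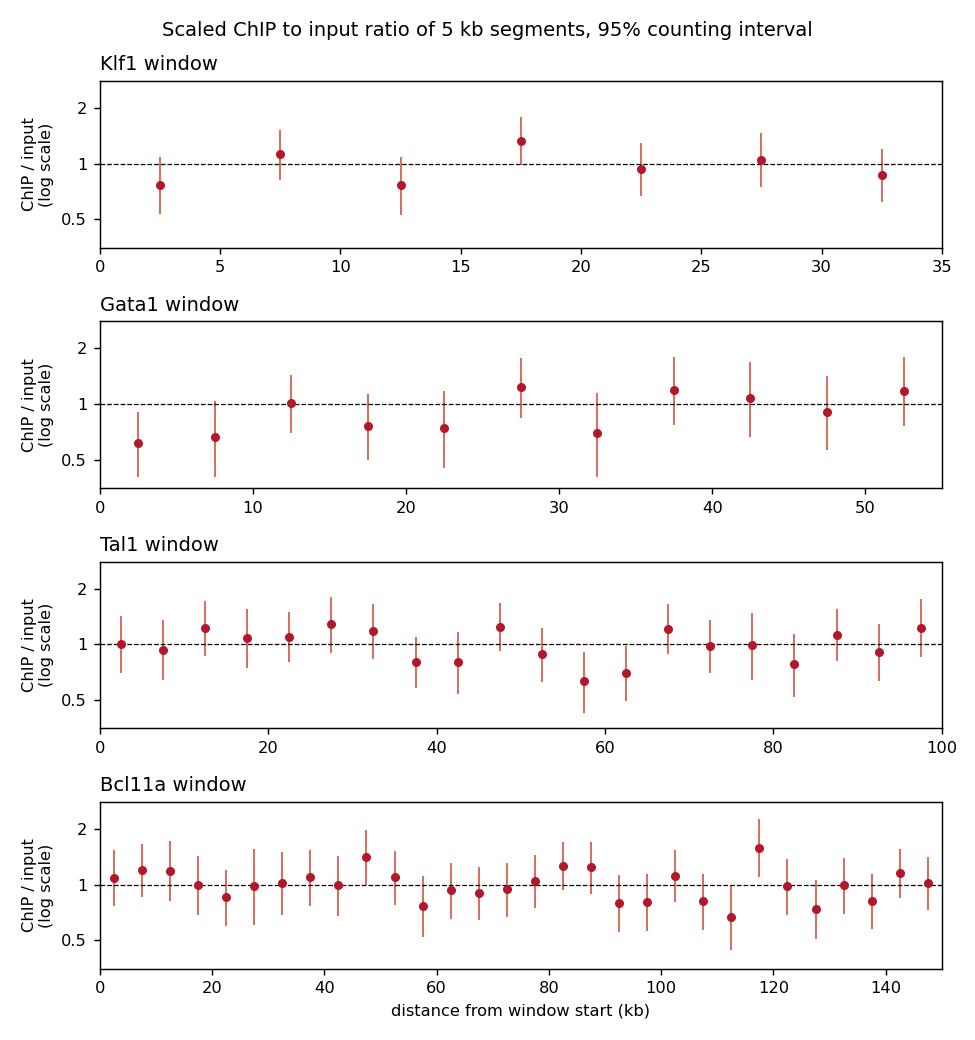
Scaled ChIP to input ratio (log scale) of each 5 kb segment against distance from the window's start in kb, with exact 95% counting intervals as bars and a dashed line at 1. The points range from 0.612 to 1.59, and 1 Bcl11a segment lies wholly above 1.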

How the data were processed

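The authors deposited a list of KLF1 peaks and 2 lists of aligned read positions on mm9, the build named in the submitters' processing notes, with both sequencing systems combined per the series' design text. No source used here gives the aligner, the peak caller or the handling of duplicates. Of the reads, no 2 within a library shared position and strand, so a height counts each position and strand once. Column 4 of the deposited list is a signal, the unscaled pileup height. For 945 of 945 peaks it was equal to the ChIP reads over the listed start, each extended by 100 positions.

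Libraries were scaled to all aligned reads (input held 2.72 times as many). Tiles with under a median tile's input divided by 2 were left out. Sites named were the highest unlisted pileup over 500 bp from any listed peak (on ties, that with the lowest input) and the closest listed peaks; the other pileups, the lowest-p bins and the segments were named after their values were seen. The windows and measures were chosen with earlier results of these data known. The regions of height 9 or more, the segments and the tile comparisons by input density were added after the data were seen. Other erythroid regulators were not examined, since no mm9 gene positions were used here. The software was Python 3.11.15 with SciPy 1.17.1, NumPy 2.4.6, matplotlib 3.10.9 and pandas 2.3.3.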

Additional observations from a re-analysis of the deposited data

How the results depend on the processing

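Of 75 alternatives over 25 results, 9 of them chosen after seeing the data, 68 left the direction, the call or the value within its counting interval. The count of listed peaks stayed at 0 for heights of 11 or more and with windows widened by 10 kb, and was 2 with windows widened by 50 kb and by 100 kb, both beside Klf1. The 4 window ratios stayed within their main intervals under each other scaling and with windows widened by 10 kb. They also did so without 500 bp on either side of the highest unlisted pileup. The ratio of Gata1 widened by 10 kb, 0.848, had its own interval wholly below 1. It was scaled to all reads, and on that scale chromosome X as a whole had 0.930. Leaving out reads near listed peaks removed nothing, as there were none. No bin in the windows was called at 200 or 500 bp, with bin borders shifted, at 3-fold, or with reads moved 50 bp. The flank ratio of the Klf1 pileup was 1.16 for flanks ending at 200 bp and 0.590 at 500 bp, and for the peak before Bcl11a it was 1.19 up to 500 bp and 2.04 up to 200 bp, against 0.905. None of these passed its test, and the cause was not tested. No paired analysis was possible because the processed files used here combine the runs of each group, and for the same reason leaving out a run was not run. Depth limits all of this: a mean ChIP height of 0.628 to 1.04 reads in the windows leaves weak occupancy undetectable.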
